A study of Homo sapiens with 33 samples.

Results

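At day 3 of differentiation, human embryonic stem cells under the 5-inhibitor treatment LSB3i were compared with cells under the 2-inhibitor treatment LSB, on 3 bead arrays per treatment. These 6 arrays were chosen by their treatment and day labels from the 33 arrays of the time course, and all 10038 genes above background in some group were tested. H9 cells (WA-09), an established line, were used at passages 32 to 50, had been kept on mouse embryonic fibroblast feeders and were moved to Matrigel to differentiate. Both groups received LDN-193189, which inhibits BMP type I receptors, and SB431542, which inhibits the TGF-beta, activin and nodal type I receptors. The LSB3i cells also received CHIR 99021, DAPT and SU5402. The labels call the LSB3i treatment a nociceptor differentiation. The labels do not state the day of addition of each inhibitor. They also leave unsaid whether arrays A, B and C are of separate cultures, and a p-value here speaks only of the spread among arrays, which may be technical. LSB arrays of day 2 served as the earlier level, and LSB3i and LSB arrays of day 5 as the next time point.

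CHIR 99021 inhibits the kinase GSK3, which otherwise marks beta-catenin for destruction, so that TCF/LEF transcription factors switch on Wnt target genes such as AXIN2 and SP5. SU5402 blocks FGF receptors, upstream of the ERK kinases, whose negative-feedback genes include the Sprouty family. DAPT inhibits gamma-secretase, which releases the active intracellular domain of Notch receptors. Dual inhibition of BMP and activin signalling alone steers pluripotent cells to anterior neuroectoderm, which expresses the forebrain and eye field genes SIX3, RAX, FEZF1 and PAX6, while Wnt signals are known to oppose anterior and promote more posterior neural identity.

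Levels are normalized intensities on the log2 scale, and differences are LSB3i minus LSB with the standard error of the model (SE). Called genes had an adjusted p (Benjamini-Hochberg, limma) below 0.05 together with a difference of at least 1 in size. Mean signals of the 6 arrays were 694 to 713 in LSB3i and 651 to 734 in LSB, with 11226 to 12243 probes detected in LSB3i and 12732 to 13164 in LSB. The lowest detected level lay higher on the LSB3i arrays (6.74 to 7.07) than on the LSB arrays (6.48 to 6.60). The day 3 arrays had left the pluripotent state in part. NANOG was detected on 0 of 3 LSB3i and 0 of 3 LSB arrays of day 3, against 3 of 3 LSB arrays of day 2, while POU5F1, SOX2 and LIN28A were detected on every one of these arrays. The neuroectoderm gene OTX2 stood at 13.10, 13.22 and 13.21 in LSB3i and 13.24, 13.30 and 13.20 in LSB, against 11.01 to 11.44 in LSB at day 2. Of 11 mesoderm markers, 0 were detected on the LSB3i arrays, and of 14 sensory neuron genes with a probe, 1 was detected on each LSB3i array, so markers of the labelled nociceptor fate were nearly absent at day 3. In bulk RNA, fewer cells of a type and less RNA per cell cannot be told apart.

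LSB3i array A stood apart from the other two arrays of its group. Over the 10038 genes, array A correlated at 0.963 with array B and 0.958 with array C, whereas B and C correlated at 0.990. Its correlation with the LSB arrays of day 3, 0.973 to 0.976, was within the range of those of B and C with them (0.966 to 0.979). With LSB arrays A and B of day 2 it correlated at 0.968 and 0.972, above B and C, which stood between 0.936 and 0.943. With LSB array C of day 2, the dimmest of these arrays, the values were lower, at 0.931 for array A and 0.904 and 0.901 for arrays B and C. LSB3i array A of day 5 correlated at 0.989 and 0.990 with arrays B and C of day 3 and at 0.956 with array A of day 3. Array A was thus closer to the day 2 LSB arrays than its partners were, and not closer to the day 3 LSB arrays. Because of this, the day 3 comparison was fitted over all 3 LSB3i arrays and again for arrays B and C alone against the 3 LSB arrays. Array A was left out with its values known. Adjusted p and calls of the fit for B and C therefore describe those arrays and are no independent test of the treatment.

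With all 3 arrays, 26 of 10038 genes were called (0.259% of those tested), of which 5 were higher (0.0498%) and 21 lower (0.209%) in LSB3i. At an unadjusted p under 0.05 there were 462 genes, and the median difference over all genes was -0.01 with a median SE of 0.281. Without array A, 90 genes were called (0.897%), 35 higher (0.349%) and 55 lower (0.548%), and 678 had an unadjusted p under 0.05. Both fits called 25 of these genes, 1 (H4C2) was called only with all 3 arrays, and 65 only with arrays B and C. Without LSB array A, B or C the count over all 3 LSB3i arrays was 15, 13 and 17, and without LSB3i array B or C it was 17 and 11. FEZF1, MT1X, MT2A and RNU11 were called under each of the 17 alternatives, SIX3 under the 16 in which it was tested, and the other 21 called genes missed the threshold under at least 1. Without LSB3i array B or C the count of the fit that omits array A was 57 and 33, with the lone remaining LSB3i array assumed to vary like the other groups. Beyond the strict calls, the 3 LSB3i and 3 LSB levels did not overlap for 1728 genes (17.2%), and 94 of them also differed at least 2-fold in the means (0.936%), 22 higher and 72 lower in LSB3i. For arrays B and C alone the groups were apart and at least 2-fold different for 274 genes (2.73%), 100 higher and 174 lower. With so few arrays, levels can fall apart without any treatment difference. A lack of overlap is therefore a description and no test, here and for single genes below.

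**Figure D1:**
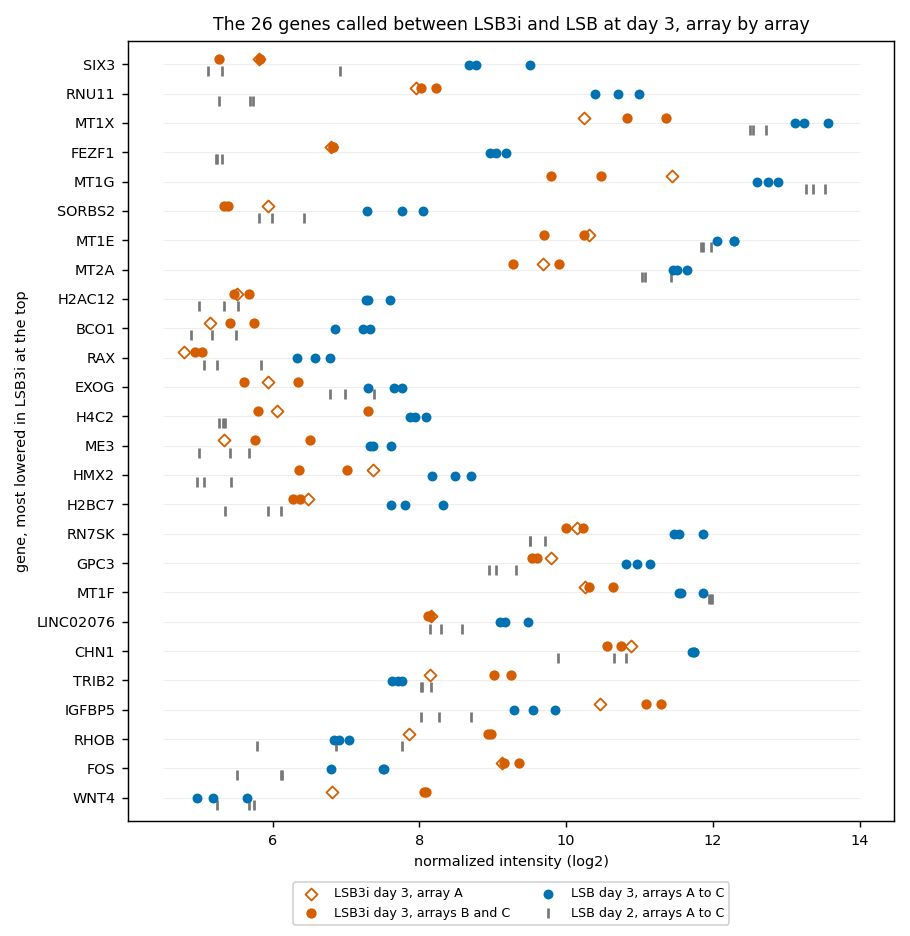
Level of each of the 26 genes called with all 3 LSB3i arrays, as normalized intensity (log2) on every array; open diamonds are LSB3i array A, filled orange circles LSB3i arrays B and C, blue circles the 3 LSB arrays of day 3 and grey ticks the 3 LSB arrays of day 2. Each point is 1 array; for all 26 genes the LSB3i and LSB points of day 3 do not overlap, and for SIX3, RAX, BCO1 and H2AC12 the LSB3i points lie among or next to those of LSB at day 2.

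The plot of called genes by array shows the 26 genes. The lower ones included forebrain and eye field transcription factors, metallothioneins, histone genes and the short RNAs RNU11 and RN7SK. The higher ones were 2 immediate-early genes, the Wnt ligand WNT4, the binding protein IGFBP5 and the pseudokinase TRIB2. In all 26 genes array A lay on the same side of the LSB arrays as B and C. Of these, H4C2 was the one that missed the threshold with B and C (-1.42, adjusted p = 0.106).

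Of the 15 forebrain and eye field transcription factors listed, 12 passed the filter, 3 were called lower and 0 higher, with all 3 arrays and with B and C alone. The shares of all genes called lower were 0.209% and 0.548%. The median difference of the 12 was -0.79, against -0.01 over all genes. It turned to 0.20 with genes at background set to the lowest detected level of each array, since that level lay higher on the LSB3i arrays. Of the 12 genes, 3 differed above 0. OTX2, also on this list and detected on 3 of 3 arrays of each treatment, was nearly unchanged, with probe differences of -0.07, 0.05 and 0.19. SIX3, a homeobox factor that represses Wnt genes in the anterior neural plate, stood at 5.81, 5.83 and 5.26 on LSB3i arrays A, B and C, against 8.77, 9.51 and 8.68 on the LSB arrays. All LSB3i arrays, A included, were at background and all LSB arrays above it. The fitted difference was -3.35 ± 0.33 (SE, adjusted p = 1.81e-06), and against the detection floor the level was at least 4.35-fold lower. With arrays B and C the difference was -3.44 (adjusted p = 4.82e-06). At day 2, LSB cells had 5.11, 5.31 and 6.92, also at background.

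FEZF1, a zinc-finger repressor of the forebrain, had 6.79, 6.83 and 6.82 in LSB3i and 8.97, 9.18 and 9.04 in LSB. The 3 LSB3i arrays lay within a narrow band, above the 5.22 to 5.31 of LSB at day 2, at background, and below every LSB array of day 3. FEZF1 was detected on 2 of 3 LSB3i arrays. Array A was under its lowest detected level of 7.07, and B and C were just above theirs of 6.74 and 6.79, so the fitted size is not exact. The difference was -2.25 ± 0.34 (adjusted p = 0.000619), and -2.24 with B and C (adjusted p = 0.00145). RAX, the retina and anterior neural fold homeobox gene that sets up the eye field, had 4.79, 5.04 and 4.93 in LSB3i against 6.57, 6.79 and 6.33 in LSB (-1.64 ± 0.22, adjusted p = 9.28e-05). It was detected on 0 of 3 LSB3i and 2 of 3 LSB arrays, near the detection limit, so no fold is given, and the difference with B and C was -1.58 (adjusted p = 0.000427). PAX6, which the neural retina and dorsal forebrain share, had 5.20, 5.62 and 6.37 in LSB3i and 7.65, 7.67 and 7.37 in LSB. These groups did not overlap, with 0 of 3 LSB3i and 3 of 3 LSB arrays above background. PAX6 was at least 1.62-fold lower against the detection floor, and the fitted difference of -1.83 ± 0.61 did not pass the test (adjusted p = 0.556). A second PAX6 probe differed by -0.36. HMX2, a homeobox gene of the inner ear and hypothalamus that is in none of the lists, was lower at 7.36, 7.01 and 6.36 in LSB3i against 8.49, 8.70 and 8.17 in LSB (-1.55 ± 0.29, adjusted p = 0.00935).

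Metallothioneins are small cysteine-rich proteins that bind zinc and copper, and their genes lie side by side on chromosome 16 and are switched on by the metal-sensing factor MTF1 at metal response elements. Of 12 listed genes of metallothioneins and metal transport, 10 passed the filter. With all 3 arrays 5 were called lower and 0 higher (MT1X, MT1G, MT1E, MT2A and MT1F), and with B and C also MT1H. The shares of all genes called lower in these fits were 0.209% and 0.548%. The list median was -1.52 with all arrays and -1.56 with B and C, against -0.01 and 0.00 over all genes. Among the metallothioneins, stretches of 250 bases before the RefSeq transcription start (GRCh38.p14) were found for MT2A, MT1X and MT1H. Those of MT2A and MT1X are printed because these genes had the smallest adjusted p of the family. Capitals mark the core of the metal response element, TGCACNC or TGCGCNC, on either strand.
MT2A, chr16:56608334-56608583, plus strand: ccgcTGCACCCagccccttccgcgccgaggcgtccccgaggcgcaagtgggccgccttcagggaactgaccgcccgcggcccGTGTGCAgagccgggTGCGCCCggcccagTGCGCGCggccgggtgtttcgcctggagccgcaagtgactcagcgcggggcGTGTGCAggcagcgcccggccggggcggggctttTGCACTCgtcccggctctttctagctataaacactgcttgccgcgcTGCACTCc
MT1X, chr16:56682220-56682469, plus strand: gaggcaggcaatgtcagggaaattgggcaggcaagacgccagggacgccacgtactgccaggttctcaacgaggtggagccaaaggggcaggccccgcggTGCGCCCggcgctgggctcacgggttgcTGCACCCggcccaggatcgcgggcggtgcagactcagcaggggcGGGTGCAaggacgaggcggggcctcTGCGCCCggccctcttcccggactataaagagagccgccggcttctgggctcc
The core occurred 7 times before MT2A, 4 times before MT1X and 8 times before MT1H. Of the other listed genes with a stretch, SLC30A1 held 1 copy, and SLC39A10 and MTF1 held 0. Of 35116 stretches of the same length before RefSeq starts, 24.8% held it at least once and 1.58% at least 3 times. Among the stretches of tested genes, 31.5% held it at least once.

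MT1X had 10.24, 11.36 and 10.84 on LSB3i arrays A, B and C, against 13.24, 13.57 and 13.12 in LSB. The LSB3i levels were all lower by more than the whole spread of both groups, and array A was the lowest (-2.50 ± 0.32, adjusted p = 8.75e-05). MT2A had 9.68, 9.90 and 9.28 in LSB3i and 11.51, 11.64 and 11.45 in LSB (-1.91 ± 0.22, adjusted p = 2.34e-05). MT1E had 10.31, 10.24 and 9.69 against 12.29, 12.29 and 12.06 (-2.13 ± 0.36, adjusted p = 0.0031). In both genes array A lay with B and C. MT1G had 11.45, 10.47 and 9.79 in LSB3i, with array A highest, against 12.75, 12.89 and 12.60 in LSB (-2.18 ± 0.44, adjusted p = 0.0167). MT1F had 10.26, 10.64 and 10.32 in LSB3i and 11.57, 11.86 and 11.54 in LSB (-1.25 ± 0.23, adjusted p = 0.00611). MT1H was the one family member in which array A came near LSB, at 11.44 beside 10.14 and 9.41 on B and C, against 11.96, 12.34 and 12.04 in LSB. Its difference passed with B and C (-2.34 ± 0.43, adjusted p = 0.00289) and not with all arrays (adjusted p = 0.108), and a second probe differed by -0.66. With B and C the differences were -2.21 for MT1X (adjusted p = 0.000465), -1.95 for MT2A (adjusted p = 5.59e-05), -2.24 for MT1E, -2.62 for MT1G and -1.18 for MT1F, and each passed. Metallothionein transcripts are near-identical, so probes of the family may share signal and the members are not independent.

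The normalized intensities of the list summed to 12663, 11491 and 9401 on LSB3i arrays A, B and C, against 34079, 39467 and 32302 on the LSB arrays of day 3. In LSB at day 2 they summed to 36966, 36220 and 37840, so the LSB3i arrays were below both LSB days. This differs from the forebrain genes, which were low in LSB at day 2. At day 5, 0 of the 10 tested genes were called in either direction between LSB3i and LSB, against 3.22% of all genes. MT1X then averaged 10.11 in LSB3i and 10.29 in LSB, and MT2A 9.92 in LSB3i and 9.42 in LSB. For these genes both treatments thus stood near the day 3 LSB3i levels of 10.81 and 9.62. Other members stood lower in both treatments than in LSB3i at day 3. MT1G averaged 8.59 in LSB3i and 8.49 in LSB at day 5, against 10.57 in LSB3i at day 3. For MT1H these means were 9.27, 9.07 and 10.33, and for MT1E 9.45, 9.54 and 10.08.

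**Figure D2:**
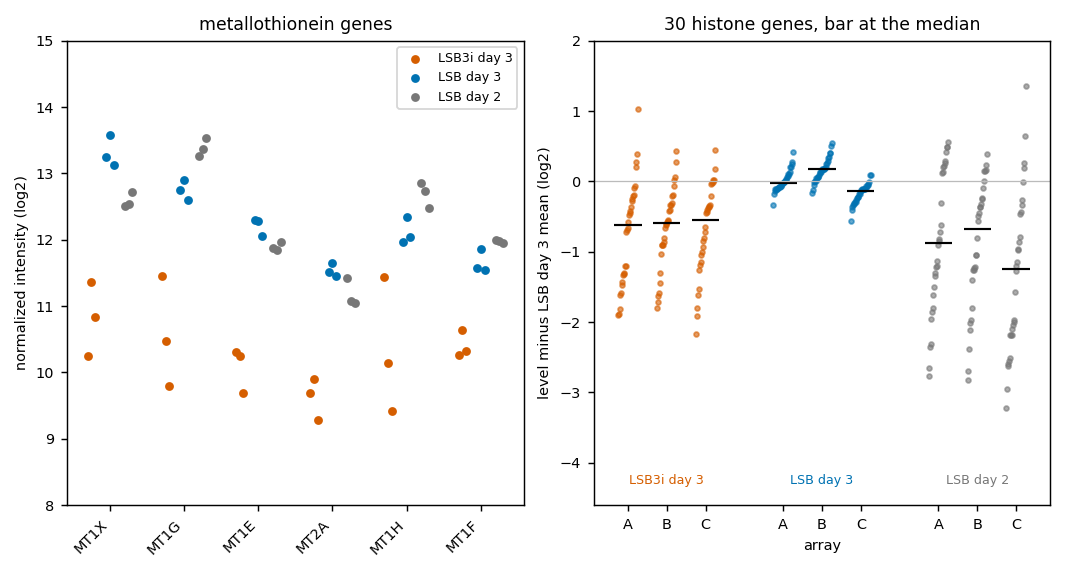
Left, levels (normalized intensity, log2) of 6 metallothionein genes on the 3 arrays each of LSB3i day 3, LSB day 3 and LSB day 2; right, 30 histone genes on the same arrays, each dot a gene's level minus its LSB day 3 mean (log2), sorted within an array, with a bar at the median. Each metallothionein is lower on all 3 LSB3i arrays than on any LSB array of either day, and histone medians are below 0 on the 3 LSB3i arrays and on the 3 LSB arrays of day 2.

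Histone genes and small nuclear RNAs appeared among the calls and were gathered as groups after their values had been seen, so their counts are a description only. The groups hold transcripts that are mostly not polyadenylated. H2AC12, an H2A histone gene, had 5.51, 5.67 and 5.47 in LSB3i, at background, and 7.29, 7.59 and 7.27 in LSB, above it on all 3 arrays (-1.84 ± 0.22, adjusted p = 3.64e-05, at least 1.43-fold lower). H2BC7 (-1.53 ± 0.29, adjusted p = 0.0116, at background in LSB3i and at least 2.06-fold lower) and H4C2 (-1.58 ± 0.35, adjusted p = 0.0465) were also called lower. LSB3i array B held 7.30 of H4C2, near the LSB arrays at 7.86 to 8.09, whereas arrays A and C had 6.06 and 5.80. Of 30 replication-dependent histone genes tested, 26 differed below 0, against 5244 of all 10038 genes. In 19 of the 30 the LSB3i levels lay under all LSB levels, against 10.1% of all genes. The median difference of the 30 histone genes was -0.70. Besides H2AC12 and H2BC7, H2AC17, H3C1, H3C8, H3C10, H3C14, H4C9, H4C11 and H4C14 were at background on all LSB3i arrays, and H4C1 in both treatments. The counts and the median include these genes, and the median was not recomputed with the detection floor. The mean over the 30 genes, relative to the LSB day 3 mean, was -0.72, -0.67 and -0.70 on LSB3i arrays A, B and C, and -0.87, -0.90 and -1.30 in LSB at day 2. Of 22 tested DNA replication and mitosis genes, 0 were called in either fit (0.259% and 0.897% of all genes), with a median of -0.12.

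RNU11, the U11 RNA of the minor spliceosome, had 7.95, 8.22 and 8.02 in LSB3i and 10.71, 10.99 and 10.39 in LSB (-2.64 ± 0.38, adjusted p = 0.000437, and -2.58 with B and C, adjusted p = 0.00109). The 3 LSB3i arrays were close together and between the LSB arrays of day 3 and those of day 2, which stood at background with 5.69, 5.73 and 5.27. RN7SK, the 7SK RNA that holds the elongation factor P-TEFb inactive, had 10.15, 10.23 and 9.99 in LSB3i against 11.54, 11.87 and 11.47 in LSB (-1.50 ± 0.33, adjusted p = 0.0441). RNU2-1 and RNU6ATAC were also apart, with differences of -1.71 and -1.65 that did not pass the test (adjusted p = 0.121 and 0.203). RNU2-1 was at background on all 3 LSB3i arrays, at least 1.45-fold lower, and RNU6ATAC was above it on 1 of 3. RN7SL1 and RPPH1, other abundant short RNAs, differed by -0.05 and 0.11.

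Among the immediate-early genes, which cells switch on within minutes of a stimulus through SRF and ERK, 16 passed the filter, 2 were called higher and 0 lower in both fits, with a list median of 0.29. The shares of all genes called higher were 0.0498% with all 3 arrays and 0.349% with B and C. FOS, a subunit of the AP-1 transcription factor, had 9.12, 9.36 and 9.15 in LSB3i and 7.50, 6.79 and 7.52 in LSB (1.94 ± 0.38, adjusted p = 0.0136). RHOB, a small GTPase of endosomes, had 7.86, 8.93 and 8.97 in LSB3i and 6.90, 7.04 and 6.84 in LSB (1.66 ± 0.35, adjusted p = 0.0298). Array A matched B and C for FOS and lay midway for RHOB. With B and C the differences were 1.98 for FOS (adjusted p = 0.0132) and 2.02 for RHOB (adjusted p = 0.00208). EGR1, a zinc-finger factor, was apart at 10.26, 10.10 and 10.15 in LSB3i against 8.85, 8.64 and 9.24 in LSB without passing the test (1.26 ± 0.39, adjusted p = 0.378).

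The other called genes belonged to none of these groups. WNT4, a ligand of the Wnt family, was detected on LSB3i arrays B and C (8.06 and 8.09), stood at 6.81 on array A, and was at background on the 3 LSB arrays (5.65, 5.18 and 4.96). Its difference of 2.39 ± 0.35 passed (adjusted p = 0.000549), at least 2.19-fold higher. IGFBP5, which binds insulin-like growth factors, had 10.46, 11.29 and 11.08 in LSB3i and 9.29, 9.85 and 9.54 in LSB (1.39 ± 0.27, adjusted p = 0.0157). TRIB2, a Tribbles pseudokinase, had 8.14, 9.02 and 9.25 in LSB3i against 7.77, 7.71 and 7.62 in LSB (1.11 ± 0.23, adjusted p = 0.0201). In these 3 genes array A lay between the LSB arrays and arrays B and C. With B and C the differences were 2.81 for WNT4, 1.63 for IGFBP5 and 1.44 for TRIB2, and each passed.

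Lower in LSB3i were GPC3, a glypican that modulates growth factor signalling, with 9.80, 9.54 and 9.60 against 10.81 to 11.14 in LSB (-1.33 ± 0.27, adjusted p = 0.0167), and CHN1, a GTPase-activating protein of axon guidance, with 10.88, 10.56 and 10.75 against 11.72 to 11.75 in LSB (-1.0 ± 0.20, adjusted p = 0.0157). SORBS2, a cytoskeletal adaptor (-2.14), BCO1, which cleaves beta-carotene to retinal (-1.70), EXOG, a mitochondrial nuclease (-1.62), ME3, a mitochondrial malic enzyme (-1.57), and the non-coding RNA LINC02076 (-1.10) were lower as well. BCO1, EXOG and ME3 were at background on all 3 LSB3i arrays, at least 1.21-fold, 1.63-fold and 1.48-fold lower, and a second ME3 probe differed by 0.18. SORBS2 was at background on arrays B and C, at least 1.91-fold lower there. Its level of 5.94 on array A was under the lowest detected level of that array, 7.07, so its fitted size is not exact. For none of these 7 genes did any LSB3i array reach the lowest LSB array, and all 7 also passed with B and C.

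**Figure D3:**
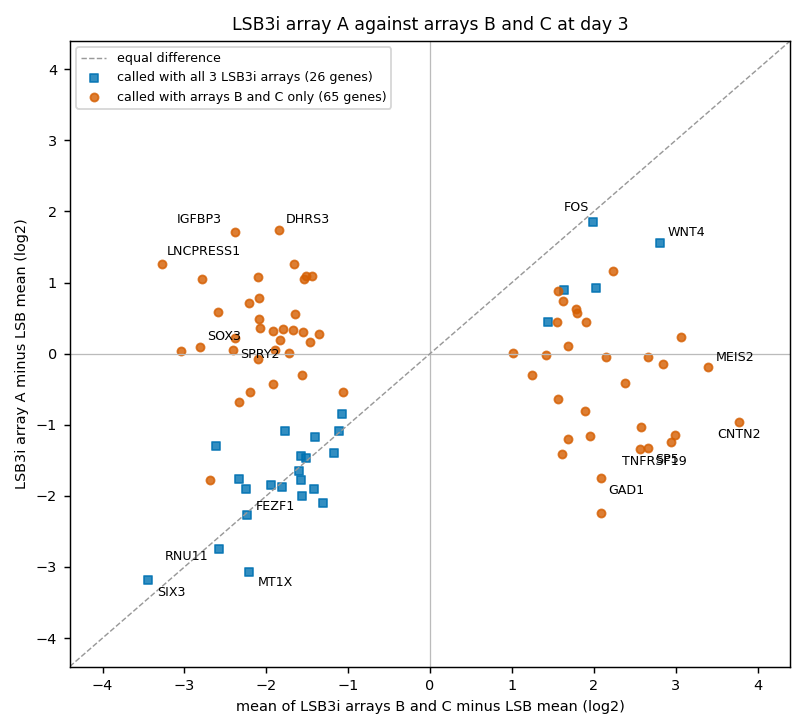
Difference from the LSB mean at day 3 (log2), LSB3i array A on the vertical axis against the mean of LSB3i arrays B and C on the horizontal axis, for the 26 genes called with all 3 arrays (blue squares) and the 65 called with B and C only (orange circles). Blue squares lie near the dashed line of equal difference or on its side of 0, and most orange circles lie near or across 0 on the vertical axis. Both axes subtract the same LSB mean, and the orange genes are those that missed the call with array A included.

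Of the 65 further genes called with arrays B and C, array A was on the other side of the LSB mean for 48 and beyond all 3 LSB arrays on the side of B and C for 14, as the plot of array A against B and C shows. These 65 genes are those that missed the call once array A was included, so its distance from B and C follows largely from their choice. Since the split of A from B and C was also known when these arrays were set apart, the position of array A is given as a description. Over all 90 genes called with B and C, the median of array A's difference from LSB was -1.65% of that of B and C. Array A was beyond all 3 LSB arrays on the side of B and C for 39 of 90 genes (36.4% over all genes) and on the other side of the LSB mean for 48. Its level was nearest the LSB day 3 mean for 39 genes, nearest the LSB day 2 mean for 33 and nearest B and C for 18. With the LSB day 2 mean left aside, it was nearer B and C than LSB of day 3 for 26 of 90 genes (41.4% over all genes). No share over all genes was taken for the other side of the LSB mean or for the nearest of the 3 means.

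Of 14 tested Wnt/beta-catenin feedback and target genes, 0 were called with all 3 arrays, and 3 were called higher and 0 lower with B and C (AXIN2, SP5 and TNFRSF19). Among all genes, 0.349% were called higher and 0.548% lower with B and C. The list median was 0.16 with all arrays and 0.54 with B and C. With genes at background set to the detection floor these medians were 0.35 and 0.33, so their difference between the fits depended on genes at background. Relative to LSB, the mean of the list was -0.42 on array A, 0.67 on B and 0.62 on C. SP5, a transcription factor among the most direct Wnt targets, stood at 5.78 on array A and at 9.80 and 9.74 on B and C, against 6.66, 7.63 and 7.03 in LSB. Array A was below every LSB array, and B and C above (2.67 ± 0.42 for B and C, adjusted p = 0.000529, and 1.33 ± 0.64 for all 3, adjusted p = 1). The 250 bases before its RefSeq start (GRCh38.p14) are shown because they hold the most copies among the matched genes of this list, 3 of the TCF/LEF word CTTTGAA or CTTTGAT, in capitals, on either strand.
SP5, chr2:170715087-170715336, plus strand: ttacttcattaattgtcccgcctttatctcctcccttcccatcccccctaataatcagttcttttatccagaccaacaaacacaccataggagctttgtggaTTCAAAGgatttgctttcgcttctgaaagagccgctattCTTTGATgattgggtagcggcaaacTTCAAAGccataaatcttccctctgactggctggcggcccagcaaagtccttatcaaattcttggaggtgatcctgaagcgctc
At least 1 copy occurred in 5.94% and at least 3 copies in 0.0199% of the 35116 stretches. SP5 was picked for its copies, so these shares are no test of it. DKK1 held 1 copy, and LEF1, TCF7, NKD2, RNF43, APCDD1, TNFRSF19, TCF7L2, BAMBI and TCF4 held 0 in their matched stretches. AXIN2, NKD1, ZNRF3, NOTUM, LGR5 and CCND1 had no matched stretch. MYC and DKK4, also on the list, were left out of the listed stretches. The ranking by copies covers none of these genes.

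AXIN2, the scaffold that rebuilds the beta-catenin destruction complex, had 9.33 on array A and 10.53 and 10.45 on B and C, against 8.62, 8.83 and 8.66 in LSB (1.79 ± 0.39 for B and C, adjusted p = 0.0132, and 1.40 for all 3, adjusted p = 0.197). Of the 3 called Wnt targets it was the one in which array A was also above all LSB arrays, at 0.63 over their mean. In LSB at day 2, AXIN2 stood at 9.99, 10.12 and 10.87, overlapping the LSB3i arrays of day 3. TNFRSF19, a TNF receptor family member induced by beta-catenin, had 8.71 on array A, 12.60 and 12.61 on B and C, and 10.02, 9.91 and 10.20 in LSB (2.56 ± 0.33 for B and C, adjusted p = 5.59e-05, and 1.26 for all 3, adjusted p = 1). It had 6.41 to 6.63 in LSB at day 2, so array A lay between the LSB days. WLS, the carrier that brings Wnt ligands to the cell surface, had 6.79 on array A, 11.01 and 11.22 on B and C and 8.94, 8.97 and 9.18 in LSB (2.08 for B and C, adjusted p = 0.0095, and 0.64 for all 3, adjusted p = 1). FRAT2, a GSK3-binding protein, went the other way, with 12.05 on array A and 8.95 and 8.82 on B and C against 11.24, 11.60 and 11.57 in LSB (-2.58 ± 0.42 for B and C, adjusted p = 0.00072, and -1.53 for all 3, adjusted p = 0.696).

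Of 15 tested FGF/ERK feedback and target genes, 0 were called with all 3 arrays, and 3 lower and 0 higher with B and C (SPRY2, SPRY4 and ETV4). Of all genes, 0.548% were called lower with B and C. The list median was -0.53 for all 3 arrays and -0.80 for B and C. Of the 15 genes, 2 differed above 0 in each fit. With genes at background set to the detection floor, these medians were -0.09 and -0.16. The mean of the list relative to LSB was 0.15 on array A and -0.77 on each of B and C. SPRY2, a Sprouty feedback inhibitor of receptor tyrosine kinases, had 9.22 on array A and 6.65 and 6.89 on B and C, against 9.34, 9.10 and 9.08 in LSB (-2.40 ± 0.46 for B and C, adjusted p = 0.00347). SPRY4, of the same family, had 7.93 on array A and 6.29 and 6.11 on B and C, at background, against 7.81, 8.03 and 7.91 in LSB (-1.72 ± 0.25, adjusted p = 0.000171, at least 2.22-fold lower). In both genes array A was among the LSB arrays and B and C were far below, and over all 3 arrays the differences were -1.59 and -1.14 (adjusted p = 0.472 and 0.22). ETV4, an ETS factor downstream of FGF, had 7.47 on array A, 5.32 and 5.22 on B and C and 6.91, 6.91 and 6.94 in LSB (-1.65 ± 0.37, adjusted p = 0.0168), with B and C at background and at least 1.11-fold lower, and -0.91 over all 3 arrays (adjusted p = 1). SPRY1 had 10.20, 9.36 and 9.22 in LSB3i and 10.09, 10.16 and 10.12 in LSB and passed in neither fit (adjusted p = 1 with all 3 and 0.746 with B and C). EGR1, given above with the immediate-early genes, is also on this list. It was higher on all 3 LSB3i arrays, by 1.26 with all 3 and 1.22 with B and C, without passing. DUSP6, another member, was at background on all day 3 arrays, with probe differences of 0.41 and -0.08. The FGF ligand and receptor list had 0 of 11 called in either fit, against 0.259% and 0.897% of all genes.

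**Figure D4:**
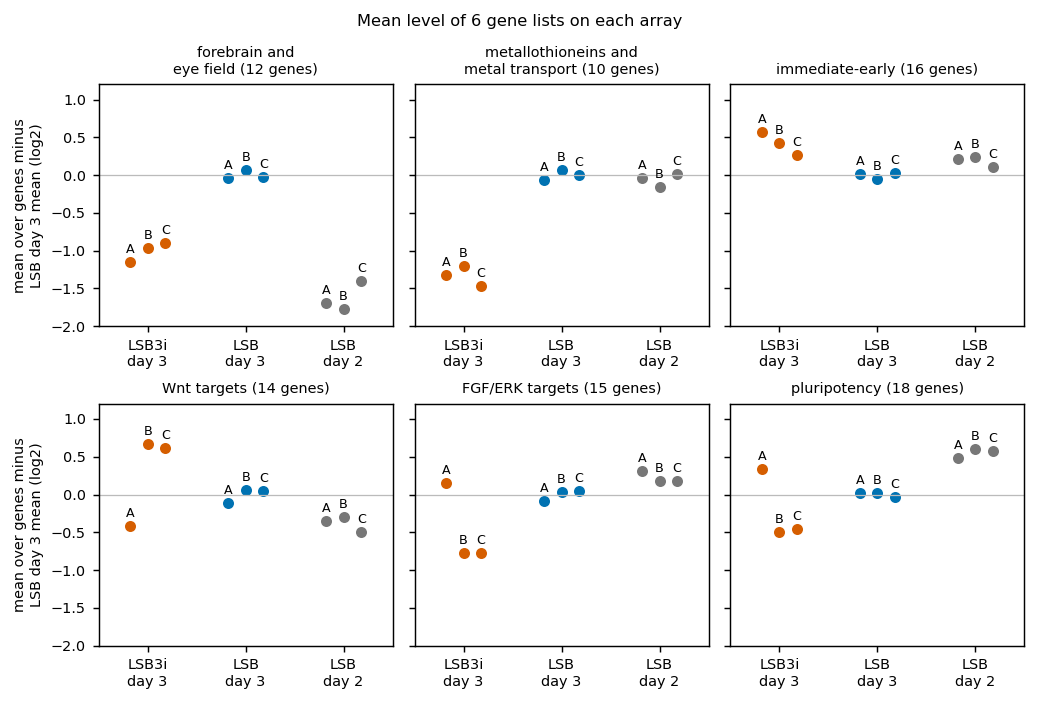
Mean over the tested genes of 6 lists, minus the mean of the LSB arrays of day 3 (log2), on each array A, B and C of LSB3i day 3, LSB day 3 and LSB day 2. For forebrain and eye field genes and metallothioneins the 3 LSB3i arrays lie together below LSB day 3, and for Wnt targets, FGF/ERK targets and pluripotency genes array A lies on the opposite side of 0 from arrays B and C.

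Pluripotency genes followed the same split, as the plot of list means shows. Of 18 tested, 0 were called with all 3 arrays, and 1 was called lower with B and C (PHC1, a Polycomb subunit), against 0.548% of all genes. The mean over the list was 0.34 on array A, -0.49 on B and -0.45 on C, against 0.55 in LSB at day 2. PHC1 had 10.48 on array A and 8.53 and 8.38 on B and C, against 10.27, 10.26 and 10.34 in LSB (-1.84 ± 0.26, adjusted p = 0.000132). L1TD1, an RNA-binding protein of pluripotent cells, had 13.04, 10.50 and 10.31 in LSB3i against 12.00, 12.13 and 11.83 in LSB, which did not pass for B and C (-1.58, adjusted p = 0.0949). LNCPRESS1, a non-coding RNA of pluripotent cells, had 10.49 on array A and 6.17 and 5.73 on B and C, at background there, against 9.10, 8.95 and 9.63 in LSB (-3.28 ± 0.28, adjusted p = 9.15e-08, at least 5.52-fold lower). It stood at 11.40, 11.39 and 10.98 in LSB at day 2, so array A lay between the LSB days. Over all 3 arrays PHC1 differed by -1.16 (adjusted p = 0.339) and LNCPRESS1 by -1.76 (adjusted p = 0.696). Epithelial and epidermal genes, 0 of 8 called, summed to 20912 on array A, 8008 on B and 7264 on C, against 12234 to 12900 in LSB at day 3 and 18666 to 21292 at day 2.

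Among the 15 highest of the genes called with B and C were MEIS2, CNTN2, DMBX1, BARHL1, DLX5 and GAD1, which are described side by side for their known roles and are not a tested list. Of the fixed lists, 0 of 15 neural progenitor and neuroectoderm genes were called higher and 1 lower with B and C, and 1 of 6 posterior and caudal genes was called higher. The shares over all genes in that fit were 0.349% higher and 0.548% lower. MEIS2, a TALE homeobox factor of the hindbrain, midbrain and limb, had 6.25 on array A and 9.79 and 9.88 on B and C, against 6.54, 6.04 and 6.72 in LSB (3.40 ± 0.31 for B and C, adjusted p = 3.32e-07), although a second probe differed by 0.19. CNTN2, an axonal cell adhesion molecule, had 9.96 and 9.76 on B and C and was at background on array A (5.13) and on the LSB arrays (3.77 ± 0.50, adjusted p = 7.44e-05, at least 10.1-fold higher). DMBX1, a homeobox gene of the midbrain, had 5.50, 8.25 and 8.42 in LSB3i and 5.08 to 5.49 in LSB, at background (3.07 for B and C, adjusted p = 0.00191, at least 3.52-fold higher). BARHL1, a homeobox gene of the hindbrain and diencephalon, had 5.87, 10.17 and 9.93 against 6.91 to 7.48 in LSB (2.95, adjusted p = 0.00207). DLX5, a distal-less homeobox gene of the neural plate border that is also a BMP target, had 5.27, 7.89 and 8.07 against 5.23 to 5.37 in LSB, at background (2.66, adjusted p = 0.00347, at least 2.75-fold higher). GAD1, which makes GABA, had 6.25, 10.04 and 10.14 against 7.65 to 8.60 in LSB (2.09, adjusted p = 0.0235). In all 6 genes arrays B and C exceeded every LSB array, and array A lay within or under the LSB range except for DMBX1, where it was level with the highest LSB array. Over all 3 arrays none of the 6 passed, with differences of 2.20 for MEIS2 (adjusted p = 0.112), 2.19 for CNTN2 (0.624), 2.13 for DMBX1 (0.26), 1.55 for BARHL1 (1), 1.76 for DLX5 (0.472) and 0.81 for GAD1 (1).

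Further genes higher on B and C were NRIP3 (2.99), GZMH, a granzyme protease (2.84), STOX2 (2.57), LRRC17 (2.39), C11orf96 (2.24) and OLFM3, an olfactomedin of neural tissue (2.15). GZMH and OLFM3 were at background on the LSB arrays and at least 3.12-fold and 1.84-fold higher on B and C. C11orf96 was the one of these in which array A was also clear of LSB, at 9.68 beside 10.85 and 10.67 on B and C, against 8.37 to 8.73 in LSB. SOX3, an SRY-box factor of pluripotent cells and neural progenitors, was lower on B and C at 6.92 and 6.59, with 9.66 on array A, against 9.55, 10.10 and 9.05 in LSB (-2.81 ± 0.39, adjusted p = 0.000109). NFE2L3, a CNC-family transcription factor (-3.04), GRPR, a bombesin receptor (-2.79), ABCA1, a cholesterol exporter (-2.38), IGFBP3, another carrier of insulin-like growth factors (-2.38, at background on B and C and at least 1.96-fold lower), and DHRS3, which reduces retinal (-1.85), were lower as well. In NFE2L3 and ABCA1, array A differed from the LSB mean by 0.03 and 0.23. GRPR, IGFBP3 and DHRS3 were above all LSB arrays on array A, by 1.05, 1.71 and 1.74 over the LSB mean. Over all 3 arrays the genes of this paragraph named so far passed in no case, SOX3 for example at -1.84 (adjusted p = 0.222). RIPPLY3, a T-box co-repressor, was lower on all 3 arrays at 8.28, 7.64 and 7.10 against 9.93 to 10.14 in LSB, and passed with B and C (-2.68, adjusted p = 0.0171) but not with all 3 (adjusted p = 0.0564).

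For the Notch pathway, on which DAPT acts, 0 of 11 tested target genes and 0 of 15 ligands, receptors and modifiers were called in either fit. Over all genes only 0.259% were called with all 3 arrays and 0.897% with B and C. A count of 0 in a list of this size, here or above, therefore says little about a pathway. The Notch target HES5 was above background on 1 of the 6 day 3 arrays, LSB3i array A at 7.42, with 4.94 and 4.96 on B and C and 5.33, 6.03 and 6.49 in LSB, against 7.45 to 7.94 in LSB at day 2. The ligands DLL1 and JAG1 had groups that did not overlap without passing the test. DLL1 had 8.52, 8.96 and 8.44 in LSB3i and 7.39, 7.76 and 7.78 in LSB (1.0 ± 0.27, adjusted p = 0.205), and JAG1 8.87, 9.80 and 9.75 against 8.14, 8.52 and 8.80 (0.99 ± 0.33, adjusted p = 0.524). GADD45G, a growth arrest gene, had 9.50, 8.97 and 8.93 against 7.71, 7.85 and 7.96 (1.30 ± 0.31, adjusted p = 0.0891). Among other lists, 0 members were called in either fit for cholesterol synthesis (14 tested, median 0.38, and 0.46 for B and C), hypoxia and glycolysis (15 tested, -0.16 and -0.34), the amino acid stress response (14 tested) and proneural genes (8 tested). ID1, a BMP target that inhibits bHLH factors, had 8.45, 6.87 and 6.63 in LSB3i and 8.96, 9.10 and 8.84 in LSB and did not pass (-2.22 for B and C, adjusted p = 0.111).

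Both day 3 groups were also set against LSB at day 2. These comparisons share arrays with the main one, so only their own counts and values are given. LSB3i at day 3 differed from LSB at day 2 in 575 genes (5.73%), 272 higher and 303 lower, and LSB at day 3 in 706 (7.03%), 415 higher (4.13%) and 291 lower. With arrays scaled to a common median the splits were 498 higher and 175 lower for LSB3i, and 1040 higher and 155 lower for LSB, so the balance of directions against day 2 depended on the scaling. SIX3, FEZF1 and FOS were above background on 0 of 3 LSB arrays of day 2, so folds against that day are lower bounds. SIX3 was at background in LSB3i at day 3 as well, so no fold is given, and was at least 4.65-fold higher in LSB at day 3 (adjusted p = 2.27e-07). FEZF1 was at least 1.03-fold higher in LSB3i (adjusted p = 0.004) and at least 4.90-fold higher in LSB (adjusted p = 1.9e-08). FOS was at least 5.42-fold higher in LSB3i (adjusted p = 2.2e-06) and at least 1.41-fold higher in LSB (adjusted p = 0.018). For MT2A the log2 differences were -1.56 in LSB3i (adjusted p = 3.8e-05) and 0.36 in LSB (adjusted p = 0.32).

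At day 5, which has other arrays, 323 genes were called between LSB3i and LSB (3.22%). Of the 90 genes called at day 3 with arrays B and C, 80 had the same sign at day 5 (67.7% over all genes), 42 were called in that direction and 0 in the opposite one. Of the 26 called with all 3 arrays, 20 had the same sign, 11 were called in that direction and 0 in the opposite one. SP5 (2.51), TNFRSF19 (3.08), AXIN2 (2.20), WNT4 (3.41), SOX3 (-3.15), SPRY2 (-2.73) and SIX3 (-4.08) were among those called on both days. The difference between LSB3i and LSB itself differed between day 5 and day 3 for 22 genes (0.219%), 5 upward and 17 downward. They include 6 of the 26 called genes. For RAX, FEZF1 and GPC3 the gap was wider at day 5, and for MT2A and MT1X it was narrower, at 0.49 and -0.18 at day 5. EXOG was at background in both treatments at day 5.

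**Figure D5:**
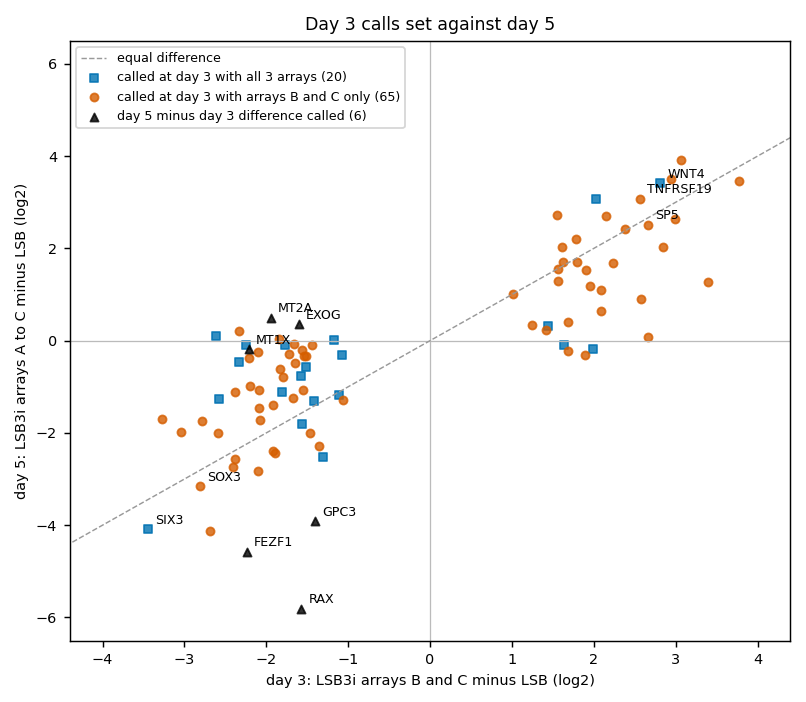
Difference between LSB3i and LSB (log2) at day 5, all 3 arrays, against day 3, LSB3i arrays B and C, for the 91 genes called at day 3 in either fit; blue squares were called with all 3 arrays, orange circles with B and C only, and black triangles are the 6 genes whose difference itself differed between the days. Most genes keep their sign, RAX, FEZF1 and GPC3 lie below the dashed line of equal difference, and MT2A, MT1X and EXOG lie near 0 at day 5.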

How the data were processed

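The deposited non-normalized table holds an intensity per probe and array and a detection p-value per probe, which per the submitters' processing notes came from GenomeStudio, with no version stated there. The authors' processed table, of linear intensity values, carries probe IDs that did not match the other table (correlation 0.227 to 0.290 by ID). Ranks across arrays matched 48780 of 48803 probes, and it entered only as an alternative under these matched IDs.

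Intensities were corrected with normexp (limma 3.58.1, R 4.3.3, background from the detection p-values, offset 16), quantile-normalized and taken to log2. Kept were probes whose detection p was below 0.01 on each of the 3 arrays of some group (14651, of which 12708 had 1 gene symbol), and the brightest probe stood for each of 10038 genes. One model with 11 group means over 33 arrays was fitted with lmFit and eBayes (22 residual degrees of freedom), and again over 32 arrays without LSB3i array A of day 3. The script was tested on simulated data. Where no array of a group was above background, a fold is a lower bound against each array's lowest detected intensity, with the other group's mean over all its arrays. Array number and the detection limit bound the precision. Slide and scan identity were not stated, so no batch was tested.

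Genes named are all those called with all 3 arrays, the 15 highest and 15 lowest called with arrays B and C, called or most shifted members of the gene lists, and a fixed panel, from which the text prints a part. RNU2-1, RNU6ATAC, RN7SL1, RPPH1 and the histone group were chosen after their values were seen. Members, lists and the split of array A were chosen with earlier results of these data known. Promoter stretches come from RefSeq. Alternatives changed the background, scaling, filter, probe choice, groups fitted, array weights and arrays left out.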

Additional observations from a re-analysis of the deposited data

Results flagged for a closer look

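For 22 genes the difference between LSB3i and LSB was itself different at day 5 and at day 3, by the difference of the 2 contrasts in limma, and the 8 of them with values in the results above are given here. Values are given as the day 5 difference minus the day 3 difference on the log2 scale, with its SE. Among forebrain genes and GPC3 the gap was wider below LSB at day 5. RAX had a fitted change of -4.16 ± 0.31 (adjusted p = 2.41e-09), with means of 4.87 in LSB3i and 10.68 in LSB at day 5. Since RAX was at background on all 3 LSB3i arrays of both days and on 1 of 3 LSB arrays of day 3, this size is not exact, and at day 5 RAX was at least 16.7-fold lower in LSB3i. FEZF1 changed by -2.33 ± 0.48 (adjusted p = 0.0336), with 5.53 in LSB3i (above background on 1 of 3 arrays) and 10.10 in LSB, so this size is not exact either. GPC3 changed by -2.59 ± 0.38 (adjusted p = 0.000428), with 9.27 in LSB3i and 13.19 in LSB.

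The gap was narrower at day 5 for 2 metallothioneins. MT2A changed by 2.41 ± 0.32 (adjusted p = 0.000105) and MT1X by 2.31 ± 0.46 (adjusted p = 0.0262). EXOG had a fitted change of 1.98 ± 0.39 (adjusted p = 0.0262), but it was at background in LSB3i on both days and in LSB at day 5, so its size is not exact. MT1X averaged 10.81 in LSB3i and 13.31 in LSB at day 3, and 10.11 in LSB3i and 10.29 in LSB at day 5.

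Of the 22 genes, 16 were not called at day 3 with all arrays, among them DLL1 and SPRY1. DLL1 changed by -2.53 ± 0.38 (adjusted p = 0.00065), with a difference of 1.0 at day 3 and -1.53 at day 5. SPRY1 changed by -2.73 ± 0.53 (adjusted p = 0.023), with a difference of -0.53 at day 3 and -3.25 at day 5.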

How the results depend on the processing

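Calls of 5 genes (SIX3, FEZF1, MT1X, MT2A and RNU11) out of 26 with all 3 LSB3i arrays, and of 19 of the 55 followed with arrays B and C, held under each alternative in which the gene was tested, since filters dropped some (SIX3 was tested in 16 of 17). H2AC12, RAX and SORBS2 kept adjusted p under 0.05 where tested and fell under the 2-fold limit. Array weights gave 224 calls with all 3 arrays, 273 with B and C, 925 for LSB3i day 3 against LSB day 2 and 388 for the difference between day 5 and day 3. With LSB3i array A omitted on each of days 3, 5, 7 and 9, there were 142 calls in both day 3 comparisons, 890 for LSB3i day 3 against LSB day 2 and 106 for the difference between the days. Fitting only the day 3 arrays gave 249 calls for B and C. Requiring detection on at least 17 arrays gave 16 with all 3 arrays. Detection in a day 3 group, and no filter, each gave 13 for the difference between the days. For LSB day 3 against LSB day 2, normexp with offset 50 gave 414, median scaling 1195 and the authors' processed values 264, and for LSB3i day 3 against LSB day 2 the first and last gave 381 and 252. Leaving out 1 day 3 array gave 11 to 90 calls with all 3 arrays, 33 to 83 with B and C, 291 to 830 for LSB3i day 3 against LSB day 2, 477 to 735 for LSB day 3 against LSB day 2 and 9 to 20 for the difference between the days. The cause of these shifts was not tested. Without LSB3i array C, the difference over all arrays turned to 0.19 for DHRS3 and to -0.13 for WLS, and without array B to -0.03 for WLS, against -1.85 for DHRS3 and 2.08 for WLS without array A. With the replicate letter as a replicate block, 28 genes were called with all 3 arrays, 97 with B and C, 565 for LSB3i day 3 against LSB day 2, 700 for LSB day 3 against LSB day 2 and 17 for the difference between the days. Deviations of same-letter LSB3i and LSB arrays correlated at -0.14, 0.051 and 0.038, so the letters were not taken to pair the arrays. Levels near the lowest detected level are limited by signal over background.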
